A study of Drosophila melanogaster with 2 samples.

Results

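The mitochondrial ribosomal protein genes of Drosophila melanogaster were examined for binding of the homeodomain protein OdsH. They were taken as the protein-coding genes of the Ensembl annotation whose name starts with mRpL or mRpS, which gave 73 of 13968 protein-coding genes. Of these, 47 are named for the large subunit (mRpL) and 26 for the small subunit (mRpS). Chromatin immunoprecipitation and sequencing (ChIP-seq) had been carried out on larvae at the wandering stage, late in the last instar, of a transgenic line that stably expresses OdsH with GFP at its C terminus. The IP used an antibody to GFP according to the description, although the antibody field of the labels names OdsH. There was 1 group with 2 biological replicates, both of which carried the transgene, so no condition was compared with another and no statistical test was made. Sex was not collected, the age was unknown, and whole animals were used, so that the signal at a gene is a mixture over all larval tissues. The labels do not name the promoter that drives the fusion, and the library that served as control was not analysed.

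Mitochondria translate the few proteins encoded in their own genome on a ribosome whose RNA is mitochondrial and whose proteins are all encoded in the nucleus. The large subunit joins amino acids and carries the exit tunnel, and the small subunit reads the mRNA. Members with low numbers descend from proteins of the bacterial ribosome, while those numbered beyond the bacterial series (above L36 or S21) are mostly additions of the mitochondrial lineage. Number and subunit follow the gene names here, although in mammals the proteins that correspond to mRpS18A and mRpS30 sit in the large subunit. OdsH belongs to the homeodomain family, whose members commonly recognise DNA with a TAAT core. It is known in Drosophila for its role in hybrid male sterility.

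The sequences at the summits and before the start sites come first. A summit is the base at which the authors' caller placed the top of a peak, and each window shown holds that base and 50 bases on either side. All are from the Release 6 reference genome (dm6), written 5′ to 3′ on the strand of the named mRp gene, with TAAT and its reverse complement ATTA in capitals wherever they stand. The windows are those of 4 of the 7 strongest member peaks and of the weakest bound member, mRpS7, and none of them overlaps an annotated exon. The window of mRpL41, the second strongest member peak, is not printed and holds no TAAT or ATTA. That of mRpS2, a stronger peak than mRpL20, is also not printed and holds 1 such site. The printed windows lie at chr2L:13835412-13835512, chr3R:15229480-15229580, chr2L:4945438-4945538, chr3L:13018071-13018171 and chr2L:10386364-10386464.
mRpS23: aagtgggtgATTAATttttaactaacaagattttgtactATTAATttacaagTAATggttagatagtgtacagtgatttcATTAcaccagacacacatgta
mRpS10: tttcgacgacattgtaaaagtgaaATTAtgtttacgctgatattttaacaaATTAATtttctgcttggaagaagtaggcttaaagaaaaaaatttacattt
mRpL24: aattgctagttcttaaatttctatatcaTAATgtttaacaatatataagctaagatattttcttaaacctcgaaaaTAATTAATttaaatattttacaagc
mRpL20: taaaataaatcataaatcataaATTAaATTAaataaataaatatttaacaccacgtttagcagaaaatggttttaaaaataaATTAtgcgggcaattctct
mRpS7: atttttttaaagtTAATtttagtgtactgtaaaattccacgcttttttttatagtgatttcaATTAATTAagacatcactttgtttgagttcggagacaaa
The AT content of these windows was 71.3%, 74.3%, 81.2%, 80.2% and 75.2% in the order given. The mRpS23 window holds 6 TAAT or ATTA sites, counting overlapping ones separately. The weakest bound member, mRpS7, has 4 such sites in its window, and the much stronger mRpL20 has 3.

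The next sequences are the 200 bases directly before the annotated start of 4 members, chosen because all 4 hold CAGCTG, an E-box core that reads the same on both strands and is also in capitals here. The genes mRpS2 (chr2L:4850420-4850619) and mRpL32 (chr3R:31252672-31252871) were bound. By contrast mRpL14 (chrX:2344650-2344849) and mRpS9 (chr3R:7902668-7902867) had no peak in the pooled list within 1 kb.
mRpS2: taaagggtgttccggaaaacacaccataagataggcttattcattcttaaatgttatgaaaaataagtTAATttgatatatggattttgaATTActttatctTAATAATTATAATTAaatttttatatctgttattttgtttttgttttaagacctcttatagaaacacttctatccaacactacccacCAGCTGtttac
mRpL32: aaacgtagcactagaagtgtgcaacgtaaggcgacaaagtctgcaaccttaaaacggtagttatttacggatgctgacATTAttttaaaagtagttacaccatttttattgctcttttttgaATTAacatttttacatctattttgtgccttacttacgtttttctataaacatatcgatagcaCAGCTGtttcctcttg
mRpL14: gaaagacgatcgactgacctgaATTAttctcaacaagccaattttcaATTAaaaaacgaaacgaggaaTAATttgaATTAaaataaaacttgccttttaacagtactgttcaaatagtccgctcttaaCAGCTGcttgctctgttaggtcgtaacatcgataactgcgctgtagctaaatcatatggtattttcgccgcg
mRpS9: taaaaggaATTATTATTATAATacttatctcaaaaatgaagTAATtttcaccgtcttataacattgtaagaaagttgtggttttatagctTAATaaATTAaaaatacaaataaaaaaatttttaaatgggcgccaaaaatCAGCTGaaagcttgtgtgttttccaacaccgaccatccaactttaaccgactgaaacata
CAGCTG began 11 bp upstream of the start in mRpS2, 16 bp in mRpL32, 72 bp in mRpL14 and 60 bp in mRpS9. The summits of mRpS2 and mRpL32 lay farther out, 161 and 118 bp upstream of the start. All 4 stretches hold TAAT or ATTA, with 7 sites in mRpS2, 2 in mRpL32, 4 in mRpL14 and 7 in mRpS9. The 4-letter core was thus present with and without a pooled peak. Replicate 1 alone had a peak within 1 kb of mRpL14 (signal 18.5) and of mRpS9 (46.9).

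A gene was called bound when a summit of the thresholded list lay within 1 kb of any of its annotated transcription start sites. That list holds the 7223 peaks that passed the authors' filter on irreproducible discovery rate in the pooled data, and these were the peaks with the highest signal of the 30000 in the relaxed pooled list. Of the 73 members, 33 (45.2%) were bound, against a background of 28.0% of all protein-coding genes. In the relaxed list, which reaches into background, 64 members (87.7%) had a summit within 1 kb, against 57.0% of all protein-coding genes. Peak strength is given as the authors' signal value, whose scale the labels leave unstated, and it ranks peaks within a list only. No read totals come with the lists, so the depth behind each peak is unknown.

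Strong peaks at 7 members stood apart from the other 26 bound members. The strongest belonged to mRpS23, a small subunit protein numbered beyond the bacterial series, whose peak (chr2L:13835275-13835646) had a pooled signal of 2265 and rank 12 in the whole list. Its signal was 957 in replicate 1 and 1317 in replicate 2. The summit lay 390 bp upstream of the mRpS23 start but 102 bp from the start of CenG1A, an Arf GTPase-activating protein gene that runs the other way. The second was at mRpL41 (chr2R:15217571-15217949), with a pooled signal of 1927 and replicate signals of 820 and 1123. This summit lay 141 bp upstream of mRpL41, and the head-to-head gene CG8079 starts 762 bp from the mRpL41 start, so mRpL41 was the closer. The third was at mRpS10 (chr3R:15229329-15229743), which encodes a protein of the small subunit head, at 1858 pooled, 797 in replicate 1 and 1070 in replicate 2. Its summit sat nearly midway between 2 starts, 135 bp upstream of mRpS10 and 122 bp from Art3, an arginine methyltransferase gene.

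The other 4 strong peaks lay at proteins of the bacterial series. mRpL23, whose protein lies at the mouth of the exit tunnel, had a pooled signal of 1311 and replicate signals of 568 and 751 (chr3L:2373422-2373786). It was the only bound member whose summit lay downstream of the start, by 67 bp, in its own untranslated region. mRpL24, also a protein of the tunnel mouth, had 926 pooled, 426 in replicate 1 and 510 in replicate 2 (chr2L:4945322-4945640). Its summit was 127 bp upstream and 91 bp from the start of betaggt-I, which encodes a subunit of a protein prenyltransferase. At mRpS2, a small subunit protein, the signals were 698 pooled, 279 in replicate 1 and 416 in replicate 2 (chr2L:4850396-4850714), and the summit was 61 bp from the start of Mon1, an endosome maturation gene. At mRpL20, whose bacterial counterpart is needed to assemble the large subunit, they were 602, 258 and 351 (chr3L:13018022-13018281), with the summit 145 bp from Icmt, a methyltransferase of prenylated proteins. Replicate 2 was higher than replicate 1 at all 7 of these peaks.

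After mRpL20 the pooled signal dropped to 260 at mRpS6, a small subunit protein of the bacterial series, with 116 in replicate 1 and 136 in replicate 2. The next members lay close together. mRpL37 had 251, mRpL53 250, mRpL18 246, mRpL21 243 and mRpL51 237 in the pooled list. The replicates had no constant order among these, since replicate 1 was the higher at mRpL37 (128 against 124), mRpL53 (123 against 116) and mRpL51 (126 against 119). These were the 3 exceptions among the 33 bound members. Pooled signals then ran through 213 at mRpL34, 209 at mRpL10 (a protein of the ribosomal stalk base), 196 at both mRpS22 and mRpL33, 194 at mRpS26, 190 at mRpS31 and 183 at mRpL44. The mRpL44 protein carries a fold related to RNase III.

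The lowest of the bound members were mRpL4 at 123, mRpS17 at 117, mRpL9 and mRpL27 at 116 and mRpS7 at 112. mRpL4 is a tunnel wall protein, mRpL27 belongs to the peptidyl transferase centre, and mRpS7 is a protein of the small subunit head. Their replicate signals were unequal, with 47.1 and 72.4 at mRpL4, 48.5 and 72.5 at mRpS17, and 45.5 and 66.5 at mRpL9. mRpS7, with 35.6 in replicate 1 and 80.9 in replicate 2, had the highest log2 ratio between replicates among the 33 (1.18), while mRpL27 had 56.0 and 58.2. The lowest signal in the thresholded list was 108.6, so these 5 were close to the cut-off of the list.

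**Figure D1:**
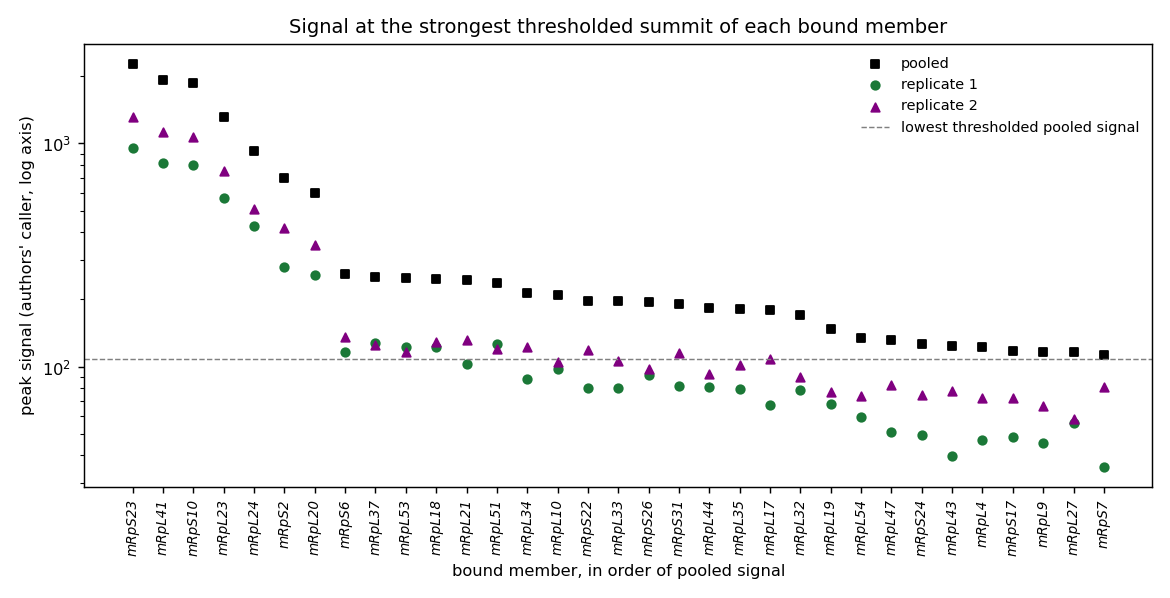
Pooled and replicate peak signal (log axis, the authors' caller) at the strongest thresholded summit of each of the 33 bound members, ordered by pooled signal, with the lowest thresholded signal as a dashed line. The 7 members from mRpS23 to mRpL20 lie at 602 or more, and the next, mRpS6, is at 260.

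All 33 bound members had a peak within 200 bp of the pooled summit in both replicates, as did 3884 of the 3910 bound coding genes. The signal was higher in replicate 2 at 30 of 33 members and at 3147 of those 3884 genes. The median log2 ratio of replicate 2 to replicate 1 was 0.40 (SD 0.29, range -0.09 to 1.18), against 0.29 (SD 0.37) over all bound coding genes. The offset between the lists is thus not limited to the members. Among the 7223 strongest peaks of each replicate, 31 members (42.5%, background 27.9%) had a summit within 1 kb in replicate 1 and 34 (46.6%, background 27.9%) in replicate 2. There were 26 members in both, and 25 of these were among the 33. This overlap was not counted over all coding genes. The 8 bound members missing from that overlap were mRpL4, mRpL9, mRpL27, mRpL43, mRpL47, mRpS7, mRpS17 and mRpS24, of which mRpL27 was outside the strongest peaks of replicate 2 and the other 7 outside those of replicate 1.

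The median pooled signal of the bound members was 196, against 213 for all bound coding genes. A signal of 600 was reached by 7 of 33 (21.2%), against 11.5% of all bound coding genes. That level was set after the gap in the members' values was seen, so it cannot show whether strong peaks were more frequent. It was reached at 2 of 16 members (12.5%) whose own start was the nearest coding start, and at 5 of the other 17 (29.4%). The median percentile among the thresholded peaks was 53.1 for the members and 58.4 for all bound coding genes.

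By subunit, 23 of 47 large subunit genes (48.9%) and 10 of 26 small subunit genes (38.5%) were bound, beside 28.0% of all protein-coding genes. Median pooled signals were 196 and 195, so the subunits had almost the same median level once bound. Members within the bacterial numbering were bound in 20 of 42 cases (47.6%), and those beyond it in 13 of 31 (41.9%), both above the same 28.0%. The smallest share was that of the small subunit genes within the bacterial numbering, 5 of 14 (35.7%), and the highest that of the large subunit genes within it, 15 of 28 (53.6%). With groups of this size, 1 gene moves the small subunit share by several percentage points.

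**Figure D2:**
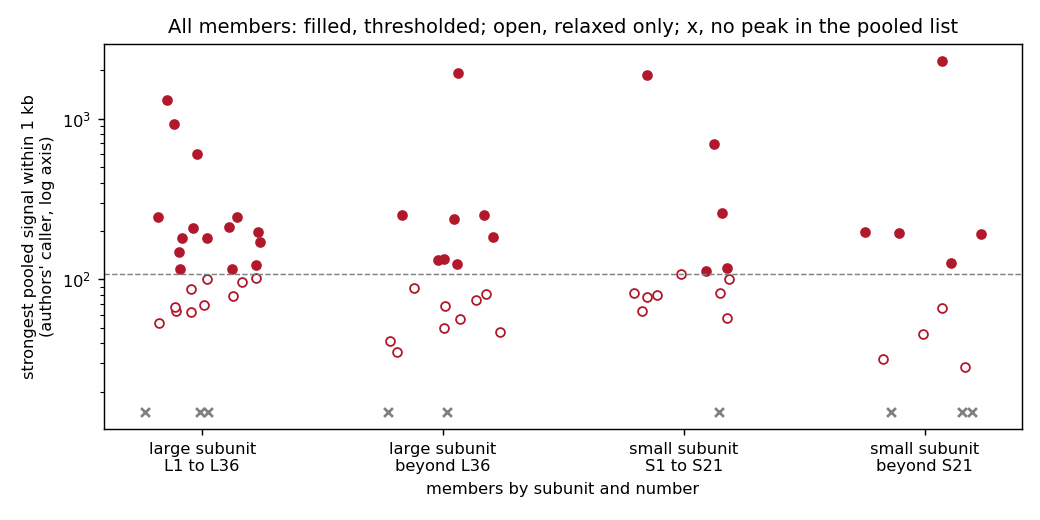
Strongest pooled signal within 1 kb (log axis, the authors' caller) of each of the 73 members, by subunit and number; filled points are thresholded summits, open points relaxed summits only, crosses at the foot of the axis members with no pooled peak, and the dashed line the lowest thresholded signal. Filled points above 600 occur in all 4 groups, and there are 9 crosses.

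Of the 40 members that were not bound, 31 had a weaker summit in the relaxed list, with a median signal of 67.8 and a range from 28.5 to 108.6. mRpS18C missed the thresholded list narrowly, with a signal of 108.6 and rank 7227. mRpL2, a protein of the peptidyl transferase centre, followed at 102, mRpL16 at 101.1, mRpS18B at 100.7, mRpL11 (a protein of the GTPase-associated centre) at 95.8, and mRpL52 at 87.8. These values adjoin those of mRpS7 and mRpL27, so the members form a continuous series across the cut-off. Signals from 87.2 down to 74.3 were found at mRpL12, mRpS11, mRpS16, mRpL50, mRpS21, mRpL15, mRpS14 and mRpL42. mRpL12 encodes the flexible stalk protein that contacts translation factors. Signals from 69.0 down were found at mRpL1, mRpL39, mRpL36, mRpS29, mRpS5, mRpL28, mRpL22, mRpS18A, mRpL49, mRpL3 and mRpL55. mRpS29 is the GTP-binding protein known in mammals as DAP3. The lowest, from 47.0 to 28.5, were mRpL38, mRpS34, mRpL48, mRpL40, mRpS33 and mRpS25.

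These weak peaks were in part seen in a single replicate. Both replicates held a peak within 200 bp at 22 of the 31, replicate 1 alone at 2 (mRpL22 and mRpL3) and replicate 2 alone at 7. Of the 31 summits, 22 lay within 250 bp of the start, 23 lay upstream and 6 were over 500 bp away.

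The pooled list held no summit within 1 kb of 9 members: mRpL13, mRpL14, mRpL30, mRpL45, mRpL46, mRpS9, mRpS28, mRpS30 and mRpS35. mRpL45 is the protein that tethers the mammalian mitoribosome to the inner membrane, and mRpS9 reaches with its tail to the tRNA in the bacterial ribosome. A peak in replicate 1 alone was within 1 kb of 4 of them, with signals of 46.9 at mRpS9, 24.9 at mRpL30, 22.7 at mRpS30 and 18.5 at mRpL14. In replicate 2 mRpL13 had a peak at 14.8, and the remaining 4 had none in either list. Each list ends at 30000 peaks, and the lowest signal in the pooled list was 27.2, so weaker peaks would not be listed. The lists give no signal at a gene without a peak.

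Most members lie head to head with another coding gene, meaning that a coding gene on the opposite strand starts within 1 kb upstream of any of their starts. This held for 58 of 73 members (79.5%) and for 36.2% of all protein-coding genes. Bound genes were frequent in this layout in general. Among head-to-head members 30 of 58 (51.7%) were bound, beside a background of 45.9% of head-to-head coding genes. Among the other members 3 of 15 were bound, beside 17.9% of coding genes without such a partner. Within either layout the members' share was thus near the background, and the wider gap over all genes moves with the layout, whose part in it was not tested. The 3 bound members without a partner were mRpL10, mRpL19 and mRpL9, with summits 85 to 145 bp upstream.

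**Figure D3:**
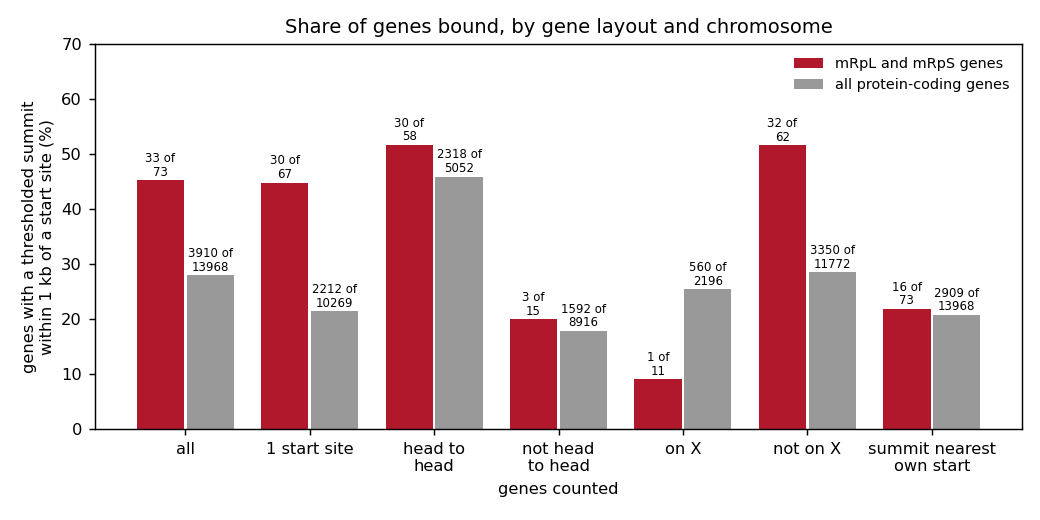
Percentage of the mRpL and mRpS genes (red) and of all protein-coding genes (grey) with a thresholded summit within 1 kb of a start site, for all genes and for classes by start sites, layout and chromosome, and last when a summit counts only for its nearest coding gene; labels give genes bound of genes counted. The red bar is at 45.2% over all genes, close to grey within each layout (51.7% and 45.9%; 3 of 15 genes and 17.9%), and below grey on X.

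The distance between the paired starts also differed between bound and unbound members. The median gap was 290.5 bp at bound and 131 bp at unbound members. With starts under 100 bp apart, a limit chosen after the values were seen, 5 of 18 members (27.8%) were bound, against 43.7% of such coding genes. With starts 100 bp or more apart, 25 of 40 (62.5%) were bound, against 46.3% of such coding genes. The closely spaced bound members were mRpL18, mRpL23, mRpL51, mRpL27 and mRpL47.

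At the 30 bound head-to-head members, 25 summits lay between the starts, 4 past the start of the partner and 1, that of mRpL23, inside the member. These positions were not counted over all bound head-to-head coding genes. The 4 past the partner were mRpL18 (partner Taz, tafazzin of cardiolipin remodelling), mRpL51 (Uba4, a ubiquitin-like activating enzyme), mRpL27 (CG15435) and mRpL33 (norpA, the phospholipase C of phototransduction). A summit between the starts cannot be given to either gene from peak lists. By distance alone, 17 of the 33 summits were nearer to the start of another coding gene and 1 was equally near (mRpL54 and CG15653, 121 bp each). The member's own start was the nearest, ties included, at 16 of 33 (48.5%), against 70.8% of all bound coding genes. Among head-to-head genes alone this was 43.3% of the bound members and 53.8% of the bound coding genes, so the difference was smaller within that layout. When each summit was counted for its nearest coding gene only, 16 of 73 members (21.9%) were bound, against 20.8% of all protein-coding genes.

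The neighbours include genes of many functions. At mRpL53 the summit was nearest to AGO1, the Argonaute protein of the microRNA pathway (41 bp). It was nearest to rept, which encodes the ATPase Reptin, at mRpL21 (68 bp), and to Snr1, a subunit of the Brahma remodelling complex, at mRpL44 (81 bp). At mRpS7 it was nearest to Cdk1, the mitotic kinase (152 bp), and at mRpS17 to Nop60B, a pseudouridine synthase of ribosomal RNA (145 bp). The summit was nearer to the member itself at mRpS6 (91 bp), mRpL34 (168 bp), mRpS22 (94 bp), mRpS26 (214 bp), mRpS31 (219 bp) and mRpL4 (107 bp).

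**Figure D4:**
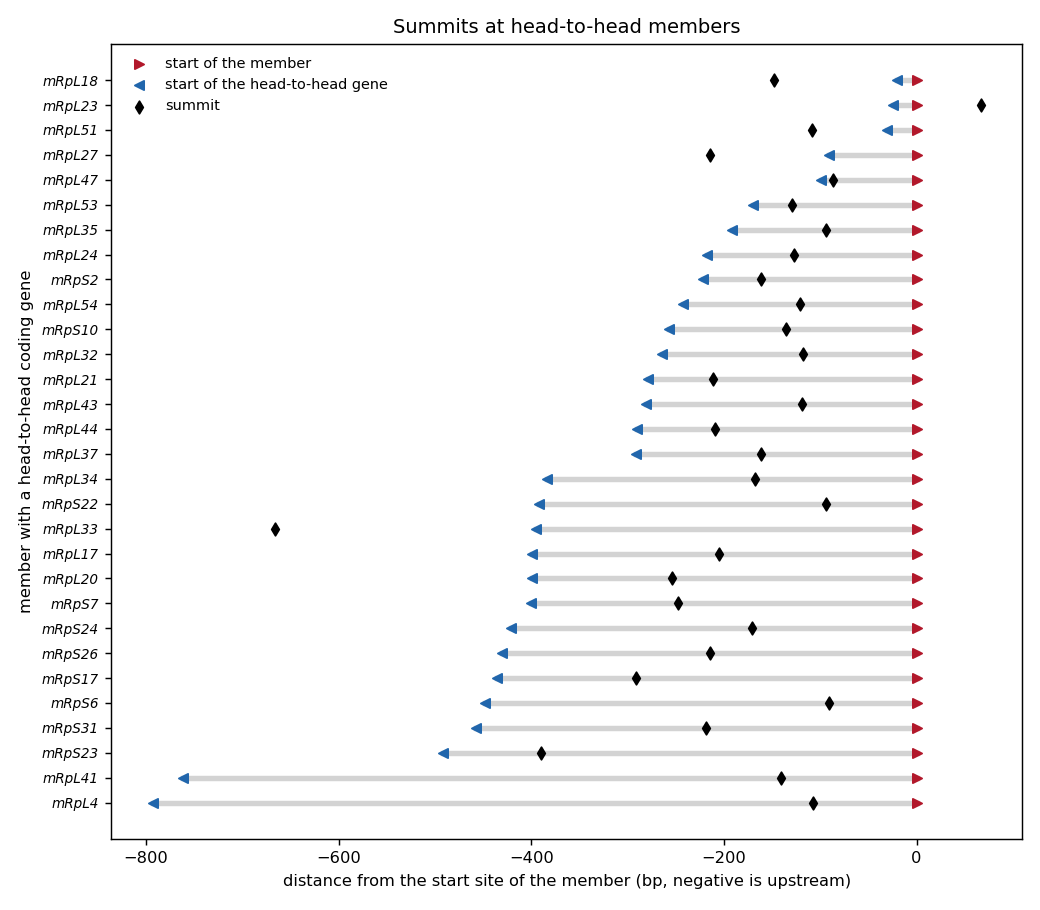
Positions of the summit (diamond), the start of the member (red, at 0) and the start of its head-to-head coding gene (blue) in bp for the 30 bound members with such a partner, sorted by the gap between starts. In 25 rows the diamond lies between the arrows, in 4 it lies past the blue arrow and in 1, mRpL23, it lies past the red. The same positions were not counted over other coding genes.

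The summits occupied a narrow band upstream of the members. The median summit was 145 bp upstream of the nearest start (quartiles 211 and 118 bp), and over all bound coding genes it was 133 bp upstream, with wider quartiles from 265 to 27.2 bp. Summits were upstream at 32 of 33 members (97.0%), against 78.9% of all bound coding genes. The band from 50 to 300 bp upstream held 30 of 33 (90.9%), against 49.6% of all bound coding genes and 56.1% of the head-to-head ones. Genes of the cytoplasmic ribosome (RpL and RpS) differed in this: 69 of 92 were bound, their median summit was 33 bp upstream, and 30.4% had it in the same band. Their highest signal was 776, below 5 of the members.

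Every bound member had a single thresholded summit within 1 kb, against 78.0% of all bound coding genes, and no peak was shared by a pair of members. Summits were counted around every start, and these shares were not matched for the number of starts. A single start was annotated at 30 of the 33 and at 2212 of the 3910 bound coding genes. By annotation 27 summits were intergenic, 5 in an untranslated region, 1 in an intron (AGO1) and 0 in a coding exon. These classes were not counted over all bound coding genes, so they cannot be called particular to the members. The peak was 444 bp wide at 25 of the 33, the median width over all bound coding genes.

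Members on the X chromosome were bound less often than the others. Of 11 members on X, 1 (9.09%) was bound, against a background of 25.5% of X-linked coding genes, and off X 32 of 62 members (51.6%) were bound, against 28.5% of coding genes there. The bound one was mRpL33 (chrX:4322675-4323118), with a pooled signal of 196 and replicate signals of 80.5 and 106. Its summit was 666 bp upstream and 271 bp from the norpA start, the farthest from its member among the 33. On X 9 of the 11 members had a head-to-head partner, beside 58 of all 73 members. The share of X-linked coding genes with a partner was not counted, and what layout contributes on X was not tested. In the relaxed list 8 X members (72.7%) had a summit, beside 60.7% of X-linked coding genes. Of these 8 summits, 5 were over 500 bp from the start (mRpL33, mRpL22, mRpL49, mRpL3 and mRpS25). At members off X, 2 of 56 were that far (mRpL36 and mRpL55). The share of summits so far out was not counted over all coding genes. mRpL16 had the highest signal of the unbound X members (101.1), followed by mRpS14 (77.2). The groups hold few X members, and what the chromosome contributes was not tested. On the autosomal arms the bound members numbered 8 of 12 on 2L, 7 of 12 on 2R, 7 of 17 on 3L and 10 of 21 on 3R, where 28.0%, 27.7%, 28.7% and 29.9% of all coding genes were bound.

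Counting only genes with a single annotated start, so that a longer list of starts gives no extra chance of a nearby summit, 30 of 67 members (44.8%) were bound, against 21.5% of such coding genes. These counts were not split by head-to-head layout, and what start number or layout contributes to the gap was not tested.

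Short motifs were looked up on both strands in 300 bases around each start (250 before and 50 after) and in the summit windows described above. The palindrome CAGCTG, added to the list after the data were examined, was present in 40 of 73 member promoters (54.8%) and in 17.6% of all coding promoters. It lay within 50 bp of the start in 35 members (47.9%), 9.29% of all coding genes, 12.9% of head-to-head coding genes and 7.61% of cytoplasmic ribosomal protein genes. Of the member summit windows 0 of 33 held it, beside 3.90% of all thresholded summits. The member summits lay a median of 145 bp upstream, so most of their windows could not reach a motif so near the start. The 0 of 33 is therefore no separate result. Bound and unbound members held CAGCTG about equally, in 57.6% and 52.5% of promoters, and 7 of the 9 members with no pooled peak did so too. Among the X members 3 of 11 held it.

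**Figure D5:**
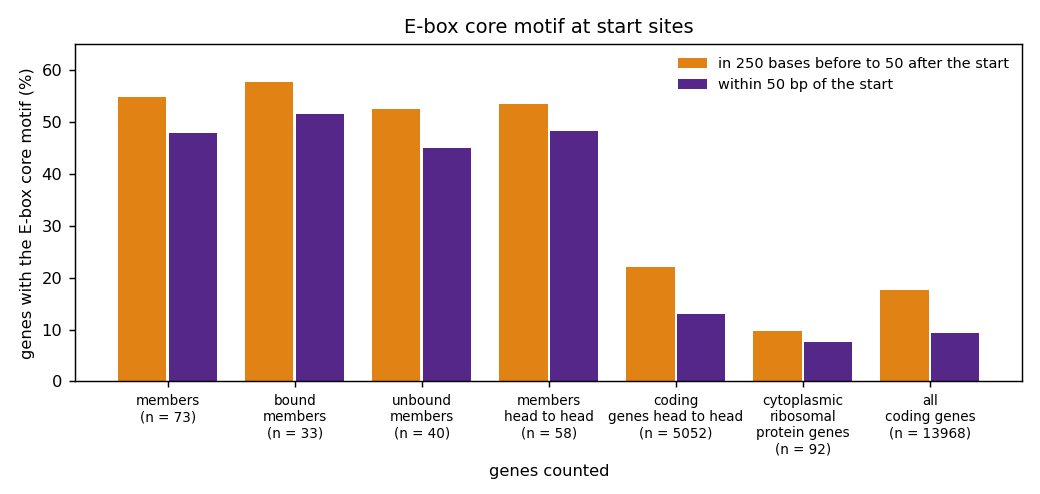
Percentage of genes with the E-box core motif in the 300-base promoter (orange) or within 50 bp of the start (purple), by gene group. In the promoter it was present in 54.8% of all members, 57.6% of bound, 52.5% of unbound and 53.4% of head-to-head members, against 17.6% of all coding genes.

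TATCGATA, the site of the promoter factor DREF, was present in 20.5% of member promoters and 9.36% of all, with near equal shares in bound (21.2%) and unbound members (8 of 40). Its core ATCGAT, which every TATCGATA contains, was present in 37.0% and 23.3%. GGTCACAC, the core of the M1BP site, was present in 8 of 73 member promoters and 7.69% of all, in 1 bound and 7 unbound members. TATAAA was as frequent in member promoters (46.6%) as in all (45.8%). GAGAG, an element bound by the Trl protein, was less frequent, in 16.4% against 29.7%. CACGTG, another E-box, was present in 6.85% against 4.20%, and GCATGCGC, part of the NRF-1 site, in 1.37% against 1.05%. The elements TTACATAA (TTATGTAA on the other strand), TTACGTAA and TTATATAA, also added later, were present together in 8.22% of member promoters and 5.18% of all.

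Motifs of the homeodomain kind were looked up in the same windows. TAAT was present in 28 of 33 member windows (84.8%) and in 75.0% of all thresholded summits. The 5 windows without it were those of mRpL41, mRpL53, mRpL18, mRpL51 and mRpL33. In promoters TAAT was near ubiquitous, in 95.9% of members (93.9% of bound and 97.5% of unbound ones) and 93.3% of all coding genes. The longer TAATTG, which contains TAAT, was present in 9 of 33 (27.3%) against 9.93%, and TAATTA in 4 of 33 (12.1%) against 9.72%. In promoters TAATTG was present in 15 bound (45.5%) and 11 unbound members (27.5%), beside 25.2% of all coding promoters. The member windows were also richer in A and T, with a median of 72.3% against 67.3% for all thresholded summits, and AT-rich letters favour these motifs, so that the part of base composition was not separated. A match in these letters is a description of the reference sequence and not a measured site.

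Other nuclear genes of mitochondrial gene expression were bound in 7 of 31 cases (22.6%, background 28.0%). Neither of the other mitoribosome genes was bound: tko, the fly gene for the S12 protein known for its bang-sensitive mutant, had a relaxed summit with a signal of 32.4, and bonsai, the S15 gene, had none. The strongest was PNPase, a mitochondrial exoribonuclease, with a pooled signal of 2347 and replicate signals of 1086 and 1284, and its pooled signal exceeded that of mRpS23. SLIRP2, an RNA-binding protein, had 1080, and its relative SLIRP1 374. The single-stranded DNA-binding protein gene mtSSB had 528, the tRNA-processing endonuclease RNaseZ 273, the termination factor family gene mTerf5 193 and the elongation factor gene mEFTu1 175. By role, 4 of 11 genes of RNA processing were bound, 1 of 4 of mitochondrial DNA replication, 1 of 7 of transcription and 1 of 7 of the translation factors. The RNA polymerase gene PolrMT (94.5) and the initiation factor gene mIF2 (108) had relaxed summits only.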

How the data were processed

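ChIP-seq peak lists of 2 replicates of 1 group were used, as deposited on the dm6 build: a list per replicate, a pooled list (30000 peaks each) and the 7223 thresholded peaks. Chromatin was sonicated to 200 to 800 bp per the labels. The signal of each peak is the authors' value as deposited, on an unstated scale, and was used to describe and rank peaks within a list. The deposited -log10 q-value reached a ceiling of 4.12 shared by 90.5% of thresholded peaks, and was therefore left aside. No aligner or caller is named in the labels or files. Read depth is unknown, and no interval was computed. The dm3 lists were not used.

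Start sites came from Ensembl release 115, sequences from the Release 6 reference (NCBI RefSeq). Summits within 1 kb of any start were assigned to a gene, keeping the strongest, and the replicate signal was that of the strongest peak with a summit within 200 bp. Members were set beside all 13968 protein-coding genes. No test was made, since there is 1 group and genes or peaks are not replicates. The members, lists, motifs and alternatives were chosen with earlier results of these data known, and CAGCTG, the elements TTACATAA, TTATGTAA, TTACGTAA and TTATATAA, and the single-start and autosomal counts were added after the data were examined. Named were the 20 strongest and 5 weakest bound members, all unbound ones, bound genes of the other lists, tko and bonsai. Members named only for a layout or replicate feature (mRpL19, mRpL43, mRpL47, mRpL54, mRpS24), mRpL32 (shown for its sequence), and PolrMT and mIF2, were chosen after their values were seen. The neighbour of 1 member is not reported here. Of the 32 other genes, 31 matched the annotation, 1 (RNaseZ) through a synonym.

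Alternatives were other distances, outermost starts, peak intervals, stronger peaks, nearest-gene assignment and the strongest 7223 peaks of the other replicate when 1 was left out. Assignment and motif scans were tested on simulated data, where 400 of 400 summits were placed and 400 of 400 motifs found. Python 3.11.15, numpy 2.4.6 and matplotlib 3.10.9 were used.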

Additional observations from a re-analysis of the deposited data

How the results depend on the processing

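The count of bound members was 29 at 250 bp, 32 at 500 bp and 39 at 2 kb, where 19.4%, 24.1% and 34.0% of all coding genes were bound. It was 33 with outermost starts (25.8% of all coding genes) and 34 with peak intervals (29.3%). Among single-start genes it was 30 of 67 (21.5% of such coding genes), and among genes not on X 32 of 62 (28.5%). The count was 19 with the stronger part of the thresholded peaks (ranks up to 3611, where 16.2% of all coding genes were bound). It was 16 when a summit counted for its nearest coding gene only (20.8% of all coding genes). That assignment gave a median percentile of 49.35. With either replicate left out, the count was 31 to 34 (27.9% of all coding genes in each case), the percentile 50.17 to 52.02 and the median summit distance -142 to -138.5 bp. Without replicate 2, 7 members were lost (mRpL4, mRpL43, mRpL47, mRpL9, mRpS17, mRpS24 and mRpS7) and 5 gained (mRpL11, mRpL22, mRpS11, mRpS18C and mRpS21). Without replicate 1, mRpL27 was lost and mRpS16 and mRpS21 were gained. The counts of 19 and 16 are limited by construction, by the fewer peaks and by the single gene per summit. No paired analysis was possible because there is 1 group. Depth is unknown, so it cannot be said how far a member without a peak lies below detection.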
